A study of Mus musculus with 22 samples.

Results

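Fatty acids are burned in mitochondria by a fixed chain of enzymes, and 10 genes of that chain were followed here in the inguinal fat of mice: Cpt1a, Cpt2, Acads, Acadm, Acadl, Acadvl, Hadha, Hadhb, Etfdh and Etfa. They are 10 of the 22180 genes tested. Each gene was read from a probe set that carries its symbol and no other, and all 10 had such a probe set. The set is defined by the enzymes' function, and it was chosen with earlier results of these data known.

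Inguinal white fat is a subcutaneous depot in which cold can bring out beige adipocytes, which burn fat for heat. RNA from this depot was measured on Affymetrix whole-transcript arrays, 1 mouse per array, in 22 male mice on a C57BL/6 background aged 3 to 4 months when the housing began. All mice were first held for 5 weeks at 28 °C, which is thermoneutral for a mouse. Of the wild-type mice arrayed, 6 stayed at 28 °C, and 5 spent 1 week at 21 °C followed by 10 days at 5 °C. The PPARα-null mice were arrayed in the same numbers, 6 at 28 °C and 5 at 5 °C. Per the labels, 10 mice per group were housed, and the sources used here do not say how those arrayed were picked. PPARα is a nuclear receptor that fatty acids activate, and the null mice lack it in all tissues, so the design compares animals and not fat cells alone. Both strains had been backcrossed to C57Bl/6J for more than 10 generations and were then bred further, and the sources used here do not say whether the mice compared were littermates.

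Long-chain fatty acids cross the mitochondrial membranes as carnitine esters. Carnitine palmitoyltransferase 1 (Cpt1a, the liver-type form) makes the ester at the outer membrane and is the step that malonyl-CoA inhibits, and Cpt2 turns the ester back into acyl-CoA on the inner membrane. Each turn of the spiral then starts with an acyl-CoA dehydrogenase chosen by chain length (Acadvl for very long, Acadl for long, Acadm for medium and Acads for short chains). The trifunctional protein, built from Hadha and Hadhb, does the remaining steps on long chains. Electrons leave the dehydrogenases through the electron transfer flavoprotein, of which Etfa is the alpha subunit, and its dehydrogenase Etfdh passes them to ubiquinone in the respiratory chain. Genes of this pathway are known targets of PPARα in liver, and they are known to be raised in brown and beige fat in the cold.

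Values are the deposited log2 expression values, on which 1 unit is a doubling of signal. The arrays read RNA, so a rise of an enzyme here means a rise of its RNA signal. Protein amounts and fatty acid oxidation were not read. Calls of change were made by limma at an adjusted p (Benjamini-Hochberg, with all 22180 genes in the adjustment) under 0.05, and intervals of changes are 95% intervals from that fit. The precision is limited by how many arrays there are. Levels are compared between mice for 1 probe set and not between genes, because probe sets differ in brightness.

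The arrays correlated with each other at r = 0.958 to 0.981 over all 41345 probe sets. Ppara's own probe set cannot check the labels of genotype. It ranged from 4.42 to 5.00 in wild-type and from 4.14 to 5.45 in null mice at 28 °C, and from 6.13 to 6.98 and from 5.77 to 7.10 at 5 °C. Limma called it higher with cold in wild-type (1.87, adjusted p = 3.65e-06) and null mice (1.42, adjusted p = 0.000129), and the sources used here do not give where it lies relative to the deleted part of the gene. Genotypes therefore rest on the labels. The tissue carried adipocyte markers on every array (mean of 6 measured markers 10.49 to 10.95). Skeletal muscle markers varied widely within groups, with a mean of 11 markers from 5.51 to 9.44 over all arrays, and limma called 0 of 11 with cold in either genotype (at an unadjusted p under 0.05, 1 of 11 in wild-type and 0 of 11 in null mice). Lymphocyte markers varied from 4.18 to 8.52 in their mean, with 0 of 7 called by limma in either genotype (0 of 7 also at an unadjusted p under 0.05).

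The genes lie on 7 chromosomes, and none lies on chromosome 15, which holds Ppara. Promoter windows are printed for 5 of the 10, chosen for a shared stretch, a motif match or, for Cpt1a, a cold response unlike the rest. They were taken from RefSeq on assembly GRCm38.p6 as 250 bases before to 50 bases after the annotated start. Hadha (chr5:30119423-30154980, minus strand) and Hadhb (chr5:30155253-30184593, plus strand) stand head to head with starts 273 bases apart. Their windows are printed because they share 228 bases, given here in capitals (chr5:30155003-30155230). Windows overlapping one on the opposite strand make up 10.8% of all 32851 windows, and 3 of the 10 enzymes have one (Hadha, Hadhb and Etfdh).
Hadha, chr5:30154931-30155230, minus strand: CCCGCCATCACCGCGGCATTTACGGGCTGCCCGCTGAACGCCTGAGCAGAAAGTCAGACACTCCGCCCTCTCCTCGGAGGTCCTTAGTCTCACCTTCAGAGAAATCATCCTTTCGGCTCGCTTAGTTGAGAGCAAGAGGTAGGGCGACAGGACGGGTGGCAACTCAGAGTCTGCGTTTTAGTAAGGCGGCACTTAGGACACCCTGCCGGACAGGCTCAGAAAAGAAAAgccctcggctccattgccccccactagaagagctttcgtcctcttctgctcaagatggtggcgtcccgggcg
Hadhb, chr5:30155003-30155302, plus strand: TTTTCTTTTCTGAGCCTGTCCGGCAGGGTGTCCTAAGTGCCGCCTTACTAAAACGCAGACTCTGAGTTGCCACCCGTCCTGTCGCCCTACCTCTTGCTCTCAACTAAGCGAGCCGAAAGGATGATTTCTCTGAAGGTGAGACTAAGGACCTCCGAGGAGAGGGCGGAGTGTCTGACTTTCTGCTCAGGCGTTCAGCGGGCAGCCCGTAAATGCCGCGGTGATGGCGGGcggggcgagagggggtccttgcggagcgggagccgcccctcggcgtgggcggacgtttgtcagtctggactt
Etfdh and Acadm are printed because their windows hold the NRF1 core GCGCATGCG, the binding motif of a factor known for nuclear genes of mitochondria, searched on both strands and given here in capitals. In Etfdh, matches on the opposite strands overlap, beginning at -128 and -127 from the start. In Acadm the match begins at -159. The core is in 1.75% of all windows and in 2 of the 10 enzymes' windows.
Etfdh, chr3:79628718-79629017, minus strand: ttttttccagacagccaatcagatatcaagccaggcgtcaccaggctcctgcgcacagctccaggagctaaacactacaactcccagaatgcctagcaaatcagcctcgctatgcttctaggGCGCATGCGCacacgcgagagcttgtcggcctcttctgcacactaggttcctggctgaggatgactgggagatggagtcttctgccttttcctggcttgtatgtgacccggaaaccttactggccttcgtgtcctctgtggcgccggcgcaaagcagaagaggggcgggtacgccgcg
Acadm, chr3:153944594-153944893, minus strand: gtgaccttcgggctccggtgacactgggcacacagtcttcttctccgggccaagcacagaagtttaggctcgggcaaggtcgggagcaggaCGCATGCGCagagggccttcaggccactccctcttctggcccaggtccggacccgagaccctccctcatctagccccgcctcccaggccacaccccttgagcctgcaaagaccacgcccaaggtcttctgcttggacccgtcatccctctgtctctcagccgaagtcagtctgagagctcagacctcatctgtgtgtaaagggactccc
Cpt1a is printed as the member that did not move with the others. Its window holds the nuclear receptor hexamer AGGTCA on the reverse strand, in capitals, beginning at -94 from the start used in the RefSeq window table, which lies inside the annotated gene (chr19:3322326-3385735, plus strand). The hexamer is in 16.3% of all windows and in 3 of the 10 enzymes' windows (Cpt1a, Acadm and Acadvl).
Cpt1a, chr19:3323051-3323350, plus strand: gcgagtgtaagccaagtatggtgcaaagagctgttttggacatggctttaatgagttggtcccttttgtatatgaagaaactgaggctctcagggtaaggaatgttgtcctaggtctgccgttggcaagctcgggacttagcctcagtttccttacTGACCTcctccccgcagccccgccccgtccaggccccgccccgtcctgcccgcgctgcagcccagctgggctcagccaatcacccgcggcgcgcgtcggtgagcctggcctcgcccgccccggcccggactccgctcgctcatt
Longer motifs TCAAGGTCA (an ERR site, in 0.423% of all windows), TGACGTCA (a CRE, in 1.79%) and AGGTCA repeated directly with a base between (DR1, in 0.0396%) had 0 matches in the 10 windows on either strand. These matches describe letters in a window, not binding.

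Cold raised 9 of the 10 enzymes in wild-type mice, and Cpt1a was the exception. The increases ran from 1.61-fold for Etfa to 3.06-fold for Acadvl, and limma called 0 of 10 enzymes lower (1 of 10, Cpt1a, at an unadjusted p under 0.05). Among all genes, 8.35% were called higher and 8.3% lower in this comparison (10.7% and 6.1% with each array's median subtracted). The median log2 change was 1.31 over the 10 enzymes and 0.0093 over all genes. All 5 cold arrays lay above all 6 arrays at 28 °C for those 9 enzymes, a separation shown by 6.27% of all genes. In the null mice the same 9 enzymes were called higher, from 1.69-fold for Acadm to 2.71-fold for Acadvl, and limma called 0 of 10 lower (0 of 10 also at an unadjusted p under 0.05), with 6.88% of all genes called higher and 6.33% lower (7.97% and 4.68% with array medians subtracted). Their cold arrays also lay above all 28 °C arrays, which 5.05% of all genes showed, and the median change was 1.16 over the 10 enzymes and -0.0034 over all genes. In bulk tissue, a larger share of cells of a type and more RNA per cell cannot be told apart.

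**Figure D1:**
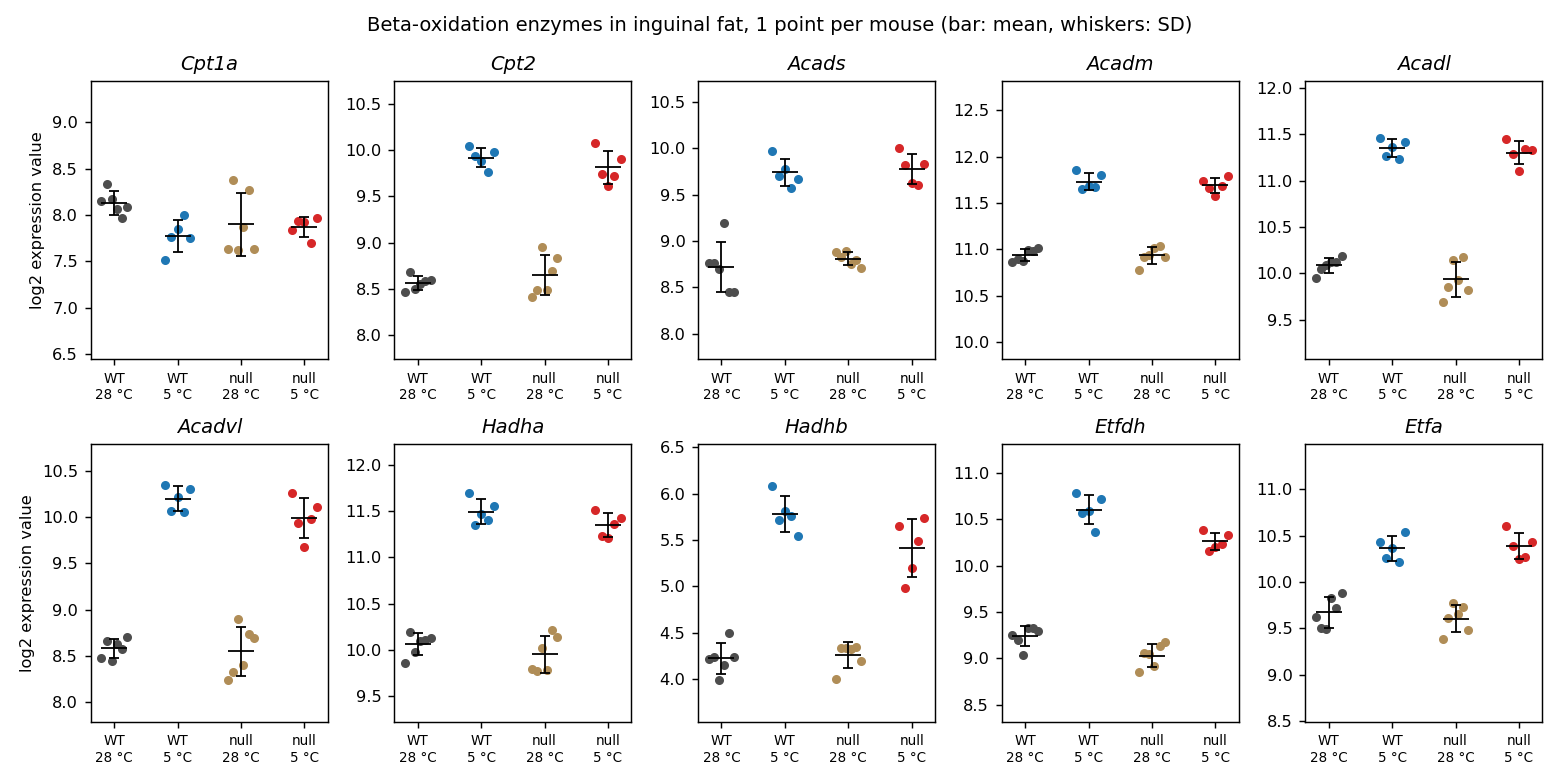
Log2 expression value (vertical axis, 3 units in every panel) of each of the 10 enzymes in the 4 groups of genotype and temperature, 1 point per mouse, with the mean (bar) and SD (whiskers). In 9 panels every 5 °C point lies above every 28 °C point of its genotype, and in the Cpt1a panel the points at 5 °C and 28 °C overlap.

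Cpt1a, the malonyl-CoA-sensitive entry step, ranged in wild-type mice at 28 °C from 7.97 to 8.34 with a median of 8.12. The wild-type mice at 5 °C gave 7.52, 7.76, 7.84, 8.00 and 7.75. All 5 cold values lay below the 28 °C mean of 8.13 ± 0.13 (SD, n = 6), and the groups overlapped by 0.03, through replicate 4 of the cold group. The change was -0.36 (SE 0.13, 95% interval -0.62 to -0.09), which limma did not call (adjusted p = 0.0578). This call sits at the edge of the threshold: 9 of 32 alternative settings called Cpt1a lower in the cold, with adjusted p from 0.025 to 0.16 over all 32. Without replicate 4 of the wild-type cold group the change was -0.41 (adjusted p = 0.0401), and leaving out null 28 °C replicate 2 (adjusted p = 0.0282) or replicate 5 (adjusted p = 0.0426) also brought limma's call. In the null mice Cpt1a at 28 °C ranged from 7.62 to 8.38 with a median of 7.75, and the cold values were 7.84, 7.93, 7.92, 7.70 and 7.96. Cold values lay inside the range of the 28 °C values, and the change was -0.03 (interval -0.29 to 0.24, adjusted p = 0.931). The spread of Cpt1a among null mice at 28 °C (SD 0.34, n = 6) was the widest of any group for this gene.

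Cpt2, which completes carnitine-dependent entry, behaved otherwise. It ranged in wild-type mice at 28 °C from 8.47 to 8.68 with a median of 8.57, and in the cold it gave 10.04, 9.93, 9.88, 9.77 and 9.98. The lowest cold value stood 1.08 above the highest value at 28 °C. The change was 1.35 (SE 0.10, adjusted p = 4.06e-09), a 2.56-fold increase (95% interval 2.22 to 2.94). In null mice Cpt2 ranged from 8.41 to 8.95 at 28 °C with a median of 8.59, and its cold values were 10.08, 9.74, 9.62, 9.73 and 9.91. That change was 1.17 (SE 0.10, adjusted p = 3.77e-08), and the groups were again separate.

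Cpt1a of the outer membrane and Cpt2 of the inner membrane therefore parted within the same mice. Cpt1b, the muscle-type form of the outer-membrane enzyme, was not analysed, so the outer step as a whole was not read. The Cpt2 signal minus the Cpt1a signal within an array shifted by 1.71 with cold in wild-type mice, from 0.43 ± 0.13 (SD, n = 6) to 2.15 ± 0.28 (SD, n = 5). In null mice it shifted by 1.19, from 0.75 ± 0.46 (SD, n = 6) to 1.94 ± 0.21 (SD, n = 5). The exact two-sided permutation test over 462 splits gave p = 0.00216 in wild-type mice, the smallest it can give, and p = 0.00433 in null mice (adjusted p = 0.00577 for each over 4 such tests). The pair was chosen with earlier results of these data known, so these p-values give no independent support for Cpt1a as an exception. The shift shows unequal change of the probe sets and not which enzyme is more abundant.

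All 4 acyl-CoA dehydrogenases rose in both genotypes. Acadvl, which takes very long chains, ranged from 8.45 to 8.71 in wild-type mice at 28 °C with a median of 8.60, and gave 10.34, 10.07, 10.22, 10.06 and 10.31 in the cold. No other of the 10 enzymes changed by as much: 1.61 (SE 0.12, adjusted p = 3.85e-09), or 3.06-fold (interval 2.59 to 3.61). It stood 35th from the top of all 22180 genes by log2 change. In null mice it ranged from 8.24 to 8.90 at 28 °C with a median of 8.55, and gave 10.26, 9.94, 9.68, 9.97 and 10.11 in the cold. There the change was 1.44 (SE 0.12, adjusted p = 2.35e-08), and the groups stood 0.78 apart.

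Acadl, the long-chain enzyme, rose by 1.26 (SE 0.09, adjusted p = 1.69e-09) in the wild type and by 1.37 (SE 0.09, adjusted p = 6.38e-10) in the null. Its wild-type values went from 9.95 to 10.18 at 28 °C and from 11.23 to 11.46 at 5 °C, and its null values from 9.69 to 10.17 and from 11.11 to 11.45. Acadm, the medium-chain enzyme, moved less, by 0.79 (SE 0.06, adjusted p = 1.61e-08) and 0.76 (SE 0.06, adjusted p = 3.77e-08). It was also among the steadiest genes within groups, with SDs from 0.07 to 0.09.

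Acads, the short-chain enzyme, ranged from 8.45 to 9.19 in wild-type mice at 28 °C with a median of 8.73, and gave 9.97, 9.70, 9.77, 9.57 and 9.67 in the cold. Replicate 4 held the 28 °C maximum and narrowed the gap between the groups to 0.38. In null mice at 28 °C the values were tight, from 8.71 to 8.89 with a median of 8.81, and in the cold they were 10.00, 9.82, 9.63, 9.61 and 9.83. The changes were 1.02 (SE 0.11, adjusted p = 7.44e-07) in wild-type and 0.97 (SE 0.11, adjusted p = 1.89e-06) in null mice.

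The ends of the chain-length series rose unequally. Acadvl minus Acads within an array shifted with cold by 0.59 in wild-type mice, from -0.13 ± 0.29 (SD, n = 6) to 0.46 ± 0.11 (SD, n = 5). The shift in null mice was 0.47, from -0.26 ± 0.28 (SD, n = 6) to 0.22 ± 0.13 (SD, n = 5). The exact two-sided permutation tests gave p = 0.00433 (adjusted p = 0.00577) and p = 0.00649 (adjusted p = 0.00649). This pair, too, was chosen with earlier results of these data known, and its shifts show unequal change of the probe sets.

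Hadha and Hadhb, the subunits of the trifunctional protein, rose together. Hadha, which carries the hydratase and dehydrogenase activities, ranged from 9.86 to 10.19 in wild-type mice at 28 °C with a median of 10.11, and gave 11.69, 11.35, 11.47, 11.40 and 11.56 in the cold. In null mice it ranged from 9.78 to 10.22 with a median of 9.91, and gave 11.52, 11.23, 11.20, 11.36 and 11.42. The changes were nearly equal in size, 1.43 (SE 0.09, adjusted p = 1.22e-09) and 1.39 (SE 0.09, adjusted p = 2.00e-09).

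Hadhb, the thiolase subunit, ranged from 3.99 to 4.50 in wild-type mice at 28 °C with a median of 4.23, and gave 6.09, 5.72, 5.81, 5.76 and 5.55 in the cold. In null mice it ranged from 4.00 to 4.35 with a median of 4.33, and gave 5.66, 4.99, 5.20, 5.49 and 5.74. Every cold array stood above every 28 °C array in each genotype, and 3 of the 5 null cold arrays lay below the lowest wild-type cold array. The changes were 1.56 (SE 0.12, adjusted p = 1.39e-08) in wild-type and 1.16 (SE 0.12, adjusted p = 8.48e-07) in null mice. Its probe set was far dimmer than the rest, with a mean of 4.86 over all arrays against 7.93 to 11.29 for the other 9.

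The electron transfer genes rose as well. Etfdh ranged from 9.04 to 9.33 in wild-type mice at 28 °C with a median of 9.27, and gave 10.78, 10.57, 10.60, 10.37 and 10.72 in the cold. Its null values ranged from 8.85 to 9.17 with a median of 9.05, and were 10.39, 10.16, 10.20, 10.23 and 10.33 in the cold. The changes were 1.37 (SE 0.08, adjusted p = 2.27e-10) and 1.23 (SE 0.08, adjusted p = 1.32e-09), with temperature groups about 1 unit apart (1.03 and 0.99). Etfa rose by 0.69 (SE 0.09, adjusted p = 1.40e-05) in wild-type and 0.78 (SE 0.09, adjusted p = 3.51e-06) in null mice, the smallest increase among the 9 called in wild-type mice.

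**Figure D2:**
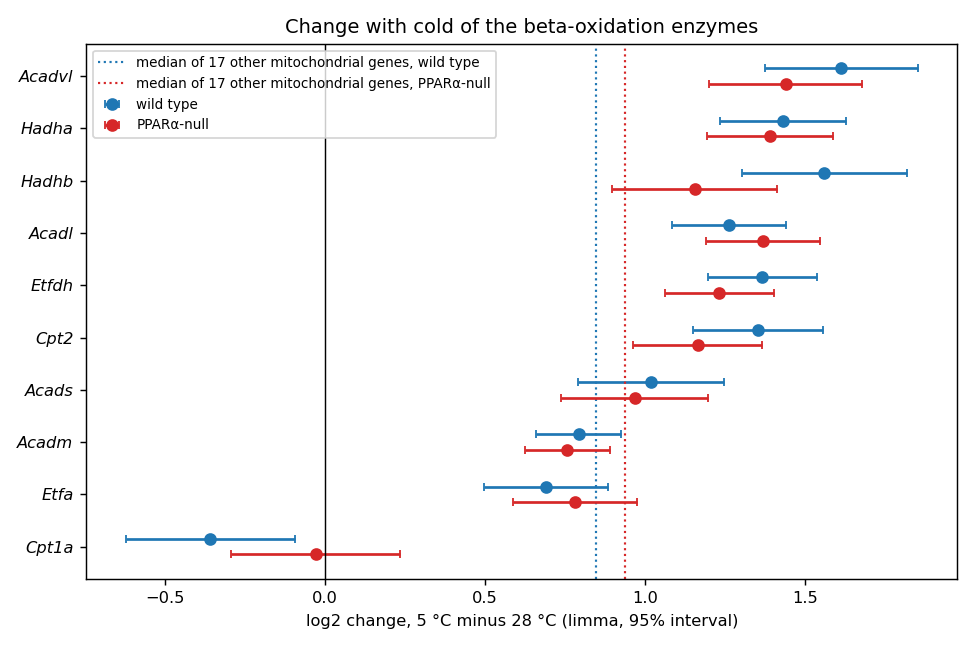
Log2 change from 28 °C to 5 °C (horizontal axis, with 95% intervals from limma) of the 10 enzymes in wild-type and PPARα-null mice; dotted lines mark the median change of 17 other mitochondrial genes. Intervals of 9 enzymes lie above 0 in both genotypes, and the Cpt1a values are -0.36 in wild-type and -0.03 in null mice.

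No difference between the genotypes in the cold response was detected for any of the 10 enzymes. The difference of the cold effects (null minus wild type) was called by limma for 0 of 10 enzymes and for 0 of 22180 genes (0%), with 1 of 10 enzymes and 1137 genes at an unadjusted p under 0.05. The log2 difference was below 0 for 7 enzymes and above 0 for 3 (Cpt1a, Acadl and Etfa). Hadhb had the lowest p, with a difference of -0.41 (interval -0.77 to -0.04, limma's adjusted p = 0.963). For Cpt1a the difference was 0.33 (interval -0.04 to 0.70, adjusted p = 0.968). For Hadha, the partner of Hadhb, it was -0.04 (interval -0.32 to 0.24). These intervals leave room for differences of up to 0.77 in size. On simulated data with many genes changed at once, the fit recovered 22% of differences of 0.5 and 82% of differences of 1. A gene that differs alone faces a stricter adjustment, so its recovery may be lower. So a missing call does not show equal responses.

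At a given temperature the genotypes overlapped for all 10 enzymes. At 28 °C limma called 0 of 10 (0.194% of all genes were called), with 1 of 10 at an unadjusted p under 0.05, and null values were lower for 7 and higher for 3. Over all genes, 1496 had an unadjusted p under 0.05 at 28 °C and 1476 at 5 °C. Skeletal muscle markers were lower in the same contrast at 28 °C: 7 of 11 had an unadjusted p under 0.05, all lower in null mice, with 0 of 11 called and a median difference of -1.57. At 5 °C 0 of 11 had an unadjusted p under 0.05, with a median difference of -0.44. In the enzymes at 5 °C, limma called 0 of 10 (0.149% of all genes), with 2 of 10 at an unadjusted p under 0.05, again 7 lower and 3 higher. Etfdh stood lowest in p at both temperatures. It was -0.21 at 28 °C (interval -0.37 to -0.05, limma's adjusted p = 0.56), with 6 of 6 null mice below the wild-type mean. At 5 °C it was -0.34 (interval -0.52 to -0.17, limma's adjusted p = 0.18), with 5 of 5 null mice below the wild-type mean and an overlap of 0.02. Hadhb at 5 °C was -0.37 (interval -0.64 to -0.10, limma's adjusted p = 0.548), with 5 of 5 null mice below the wild-type mean. None of these 3 differences held after adjustment. With the muscle marker mean as a covariate they were -0.19, -0.34 and -0.36 (limma's adjusted p = 0.753, 0.225 and 0.585).

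**Figure D3:**
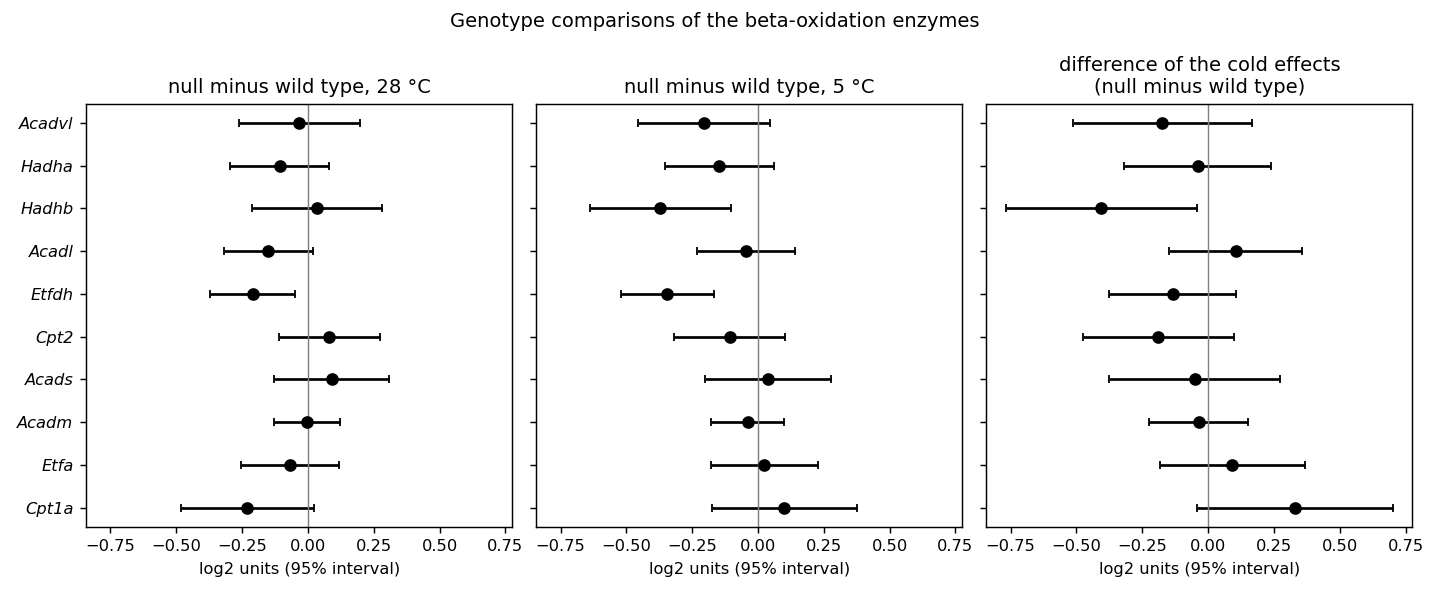
Null minus wild-type difference of the 10 enzymes at 28 °C, at 5 °C and, in the right panel, of their cold effects, in log2 units with 95% intervals from limma. The intervals that exclude 0 belong to Etfdh (-0.21) at 28 °C, Etfdh (-0.34) and Hadhb (-0.37) at 5 °C, and Hadhb (-0.41) for the cold effects.

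The order of the group means was the same for 5 enzymes: Acadm, Acadl, Acadvl, Hadha and Etfdh ran from null 28 °C through wild-type 28 °C and null 5 °C to wild-type 5 °C. For 9 enzymes every array at 5 °C stood above every array at 28 °C of either genotype, and neighbours of the same temperature overlapped. Cpt1a alone ran the other way, from wild-type 5 °C through null 5 °C and null 28 °C to wild-type 28 °C, with overlapping neighbours throughout.

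Other genes of the pathway were read from lists. In carnitine-dependent entry, 4 of 6 listed genes were measured, of which 2 were called higher in each genotype. Slc25a20, the carnitine-acylcarnitine carrier that lies between Cpt1a and Cpt2 in the path, rose by 2.03 (SE 0.11, adjusted p = 1.31e-10) in wild-type and 2.20 (SE 0.11, adjusted p = 2.92e-11) in null mice, a larger estimate than that of any of the 10 enzymes. Crat, carnitine acetyltransferase, rose by 0.57 and 0.60. Slc22a5, the plasma membrane carnitine transporter, had changes of 0.29 and 0.19 that were not called. Cpt1c, the brain-type form, was called lower in null mice (-0.33, adjusted p = 0.0429) and not in wild-type mice (-0.21, adjusted p = 0.22). Cpt1b, the muscle-type form, had a probe set shared with other genes and was not analysed here, and Acsl1 was not analysed here.

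All 8 other enzymes of the spiral and its auxiliary steps were called higher in both genotypes, with a median change of 0.65 in wild-type and 0.68 in null mice. Acaa2, the mitochondrial 3-ketoacyl-CoA thiolase, led with 1.43 and 1.52. Eci1 (0.96 and 0.94) and Decr1 (0.91 and 0.81), which prepare unsaturated chains, came next. Hadh (0.63 and 0.65) and Echs1 (0.67 and 0.71), the dehydrogenase and hydratase for shorter chains, rose in both genotypes. Hsd17b10, also active on branched chains, moved least (0.29 and 0.38). Etfb, the beta subunit of the flavoprotein, rose by 0.60 and 0.75, beside 0.69 and 0.78 for Etfa.

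Of 8 other acyl-CoA dehydrogenases, 6 were called higher in each genotype, with a median change of 0.35 in wild-type and 0.39 in null mice. Acad11 (0.87 and 1.01) led them, followed in wild-type mice by Acad9 (0.52), which also helps to assemble complex I. Ivd (0.29 and 0.34) and Gcdh (0.32 and 0.33), which act in amino acid breakdown, rose least of the called genes in wild-type and null mice respectively. Acadsb and Acad12 were not called in either genotype.

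Genes that set malonyl-CoA, the inhibitor of Cpt1a, were all called higher (3 of 3 in each genotype). Acacb, the acetyl-CoA carboxylase isoform at the mitochondrion, rose by 1.18 (adjusted p = 0.00219) and 1.35 (adjusted p = 0.000823), and Acaca, the cytosolic isoform, by 0.58 and 0.72. Mlycd, which destroys malonyl-CoA, rose by 0.77 and 0.82. Among ketone body genes, 2 of 4 were measured. Oxct1, needed to use ketone bodies, rose in wild-type mice (0.27, adjusted p = 0.00788), and its change of 0.19 in null mice was not called (adjusted p = 0.0698). Bdh1 was not called in either.

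**Figure D4:**
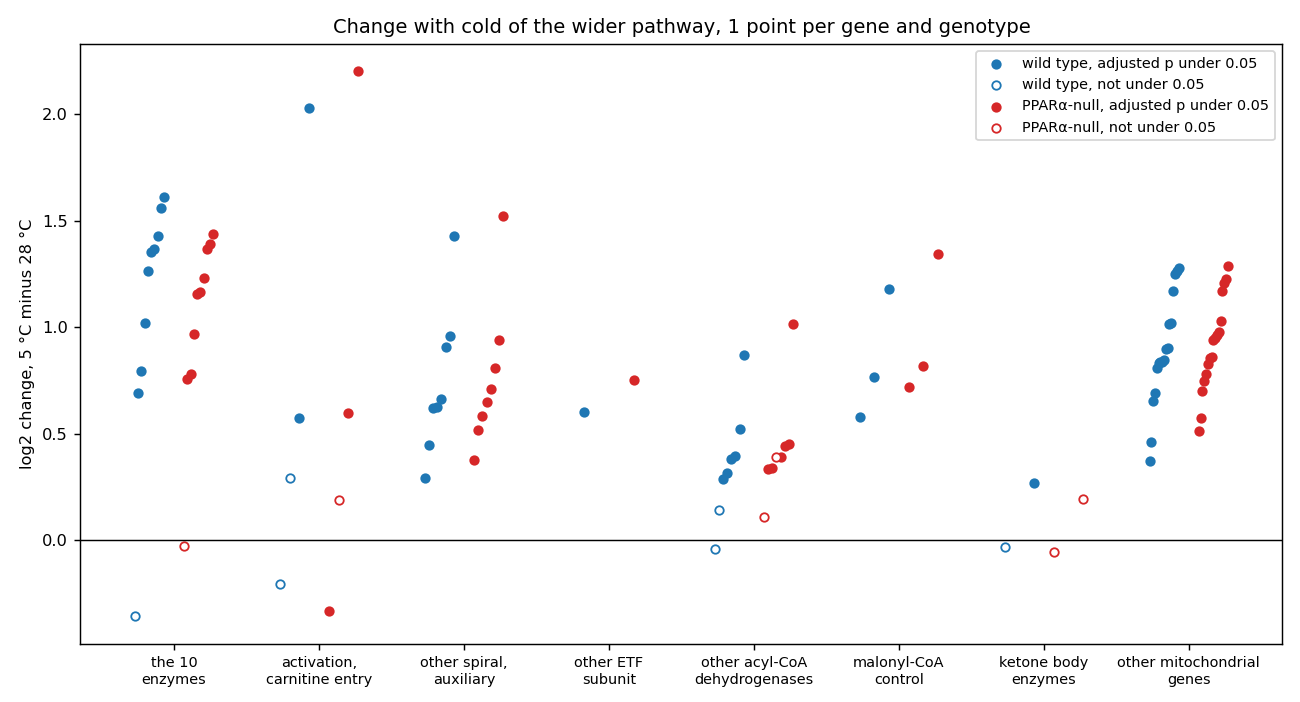
Log2 change from 28 °C to 5 °C (vertical axis) of the 10 enzymes, of 6 further lists of the pathway and of 17 other mitochondrial genes, 1 point per gene in wild-type and in PPARα-null mice, filled where limma's adjusted p was under 0.05. Slc25a20 stands highest (2.03 and 2.20), all 17 other mitochondrial genes are filled and above 0, and Cpt1a lies at -0.36 and -0.03.

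The rise was set beside that of other mitochondrial genes. All 17 measured genes of a list of citrate cycle, respiratory chain, ATP synthase and porin genes were called higher in each genotype, with medians of 0.85 and 0.94. Of the 10 enzymes, 7 lay above that median in each genotype. The highest of the 17 was Uqcrfs1, the Rieske protein of complex III (1.28 and 1.29). Above it were 5 enzymes in wild-type mice (Acadvl, Cpt2, Etfdh, Hadha and Hadhb) and 3 in null mice (Acadl, Acadvl and Hadha). These counts describe the lists, and no test of their difference was made.

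Some markers of adipocytes and of other cells moved with the same contrast. All 6 brown and beige markers were called higher in each genotype, and their mean went from 5.44 to 5.94 at 28 °C up to 9.39 to 9.80 at 5 °C in wild-type mice, and from 5.33 to 6.05 up to 9.32 to 9.77 in null mice. All 7 macrophage markers were called lower in each genotype, from a mean of 8.63 to 8.95 at 28 °C to 7.97 to 8.34 at 5 °C in wild-type mice, and from 8.60 to 8.91 to 8.11 to 8.20 in null mice. All 6 preadipocyte and fibroblast markers were called lower in each genotype, with a mean of 9.84 to 10.09 at 28 °C and 9.17 to 9.39 at 5 °C in wild-type mice, and 9.79 to 10.02 and 9.25 to 9.39 in null mice. Of the 6 adipocyte markers, limma called Adipoq, the gene of adiponectin, lower in wild-type (-0.36, adjusted p = 0.000242) and null mice (-0.27, adjusted p = 0.00449). It called Lep, the gene of leptin, lower in null mice (-0.83, adjusted p = 0.0285) and not in wild-type mice (-0.66, adjusted p = 0.0753). Of 5 endothelial markers, Tek was called lower in each genotype (-0.43 and -0.34, adjusted p = 0.000853 and 0.00948). Kdr was called higher in wild-type mice (0.24, adjusted p = 0.0425) and not in null mice (0.21, adjusted p = 0.0941). The part of these shifts in the rise of the 9 enzymes was not tested. No defining marker of these lists lay under the lower quartile of all probe sets on every array of a group. That quartile was low, at 2.83 to 2.91 over the arrays, and 5 epithelial markers with means of 3.64 to 4.07 passed it too. Passing it therefore does not show that a cell type was present.

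Skeletal muscle is itself rich in beta-oxidation, and its markers varied between mice with no called change with temperature. The mean of the 11 muscle markers ranged from 6.82 to 8.77 in wild-type mice at 28 °C, from 5.91 to 9.44 in wild-type mice at 5 °C, from 5.51 to 8.09 in null mice at 28 °C and from 6.10 to 8.996 in null mice at 5 °C. With that mean as a covariate, limma called the same 9 enzymes higher in each genotype, and Cpt1a was called lower in wild-type mice (-0.39, adjusted p = 0.0416).

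**Figure D5:**
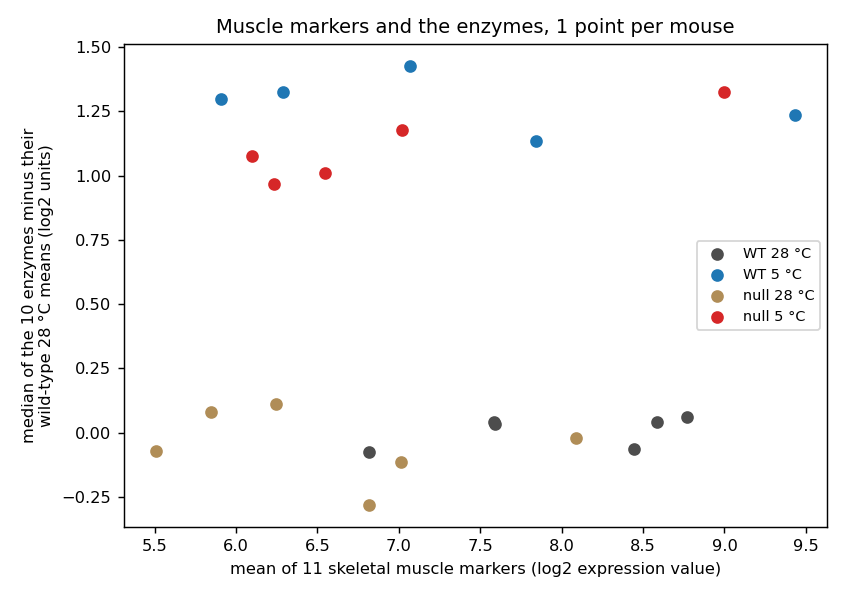
For each mouse, the median over the 10 enzymes of the log2 value minus the wild-type 28 °C mean (vertical axis) against the mean log2 value of 11 skeletal muscle markers (horizontal axis), coloured by group. The 10 mice at 5 °C lie at 0.97 to 1.43 and the 12 mice at 28 °C at -0.28 to 0.11, each over a wide range of muscle markers.

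Single mice differed across several enzymes at once. Wild-type cold replicate 1 was the highest of its group for 8 of the 10 enzymes and the lowest for Cpt1a, with a muscle mean of 7.07. Null cold replicate 1 was the highest of its group for 7 enzymes, and its muscle mean of 8.996 was also the highest of its group. Wild-type cold replicate 2 had the highest muscle mean of all arrays (9.44). It was the highest of its group for 0 enzymes and the lowest for 2. Null 28 °C replicate 1 was the lowest for 7 enzymes, with a lymphocyte mean of 8.52, the highest of all arrays. Wild-type cold replicate 4 and null cold replicate 3 were the lowest of their groups for 6 enzymes each. The part of muscle or lymphocyte RNA in these single values was not tested. Leaving out any 1 array changed no call among the 9 enzymes.

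Genes that tracked the enzymes were sought by the root-mean-square difference over the 22 arrays from the median of the 10 enzymes, each gene centred on its wild-type 28 °C mean. Genes with provisional names (Gm and Rik) and genes named Mir, Snor, Olfr or Vmn were passed over. The 5 closest of the rest were Rgs7 (0.107), Uqcrfs1 (0.109), Cycs (0.121), Acsf2 (0.123) and Dlst (0.123), in log2 units. Among them Cycs is cytochrome c and Dlst a subunit of the oxoglutarate dehydrogenase complex. Of the enzymes themselves, Acadl lay closest to that median (0.0959), Etfa farthest of the 9 that rose (0.352), and Cpt1a at 1.05. With the same genes passed over, those nearest to Cpt1a were Cdk14 (0.156), Appl1 (0.164), Enpp3 (0.165), C1qtnf1 (0.165) and Ypel5 (0.167).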

How the data were processed

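Log2 values for each probe set were made by the authors with RMA, per the submitters' processing notes. The sources used here do not give the RMA version. The values were used as deposited. Of 41345 probe sets, 23521 had a single gene symbol, 1814 several and 16010 none in the platform annotation. For the 1082 genes with several single-symbol probe sets, that with the highest mean was taken, which left 22180 genes. Each of the 10 enzymes had a single such probe set.

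Arrays were grouped by the labels' genotype and housing temperature. Genes were tested with limma 3.58.1 (R version 4.3.3) on all 4 groups together (18 residual and 3.35 prior degrees of freedom), no low-signal filter and Benjamini-Hochberg adjustment over all genes. Other steps used the R package data.table (1.17.8) and Python 3.11.15 with pandas 2.3.3, numpy 2.4.6 and matplotlib 3.10.9. Pairs of enzymes were compared by exact permutation tests of their within-array difference. Tests of Cpt1b against Cpt1a were planned and not run, because Cpt1b shares its probe set with other symbols, so 4 and not 6 tests were adjusted together. The fit was tested on simulated data in which many genes were changed at once. It called 50% of simulated wild-type cold effects of 0.5 log2 units and 96% of those of 1 unit.

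The enzymes, gene lists and tests were chosen with earlier results of these data known. All 10 enzymes and all measured genes of the pathway lists could be named, and the 5 genes closest to the enzymes' median and to Cpt1a. Some genes of the lists were not analysed here. Alternatives were another scaling, filters on dim genes, averaged probe sets, other variance settings, array weights, only the groups compared, a replicate block, the muscle mean as a covariate, medians in the exact tests, and leaving out each array. RefSeq windows were searched for motif letters on both strands.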

Additional observations from a re-analysis of the deposited data

How the results depend on the processing

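Each change of the 10 enzymes was recomputed under 32 alternatives (22 of them leaving out an array), which gave 1900 values. The 9 enzymes other than Cpt1a stayed called higher with cold in both genotypes in all 576 such values (largest adjusted p 0.000472), and no genotype difference or difference of cold effects was called in 950 values (smallest adjusted p 0.0534, for Etfdh at 5 °C with a trended, robust fit). Several alternatives could not move the size of a cold change, among them averaged probe sets, because each enzyme had a single probe set. Filters on dim genes and leaving out an array of the other genotype could move the adjusted p but not the size. Cpt1a in wild-type mice was called lower in 9 alternatives; with the replicate block its change was -0.39 (adjusted p = 0.0429). The sources used here do not say whether replicate numbers pair the mice. Deviations of same-numbered mice in different groups correlated at a median r of -0.08 over 31 pairs (-0.41 to 0.58). For 150 other pairs the median was 0.02 (-0.59 to 0.62). With ranges this wide, the medians cannot settle whether mice were paired. As 5 numbered pairs, the exact tests can reach no lower than p = 0.0625, and the shifts of Cpt2 minus Cpt1a were then 1.73 (wild type) and 1.29 (null), and those of Acadvl minus Acads 0.67 and 0.52, so none of the 4 passed. Of the 1900 values, 25 turned sign, all from uncalled changes near 0. Cpt1a in null mice became 0.0082 with array medians subtracted and -0.084 to 0.067 on leaving out arrays. Null minus wild type at 28 °C for Acadm became 0.0011 with medians subtracted, 0.0059 with array weights and -0.024 to 0.028 on leaving out arrays, for Acadvl -0.10 to 0.031, and for Hadhb -0.012 to 0.090. At 5 °C it was -0.082 to 0.0031 for Acadl, -0.017 to 0.098 for Acads and -0.029 to 0.069 for Etfa. The difference of cold effects was -0.15 to 0.0074 for Acads and -0.082 to 0.013 for Hadha. Precision is limited by the number of arrays, and signal over background was not measured.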
